A study of Mus musculus with 11 samples.

Results

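Ribosome biogenesis genes and Myc were examined in the hearts of mice 3 days after myocardial infarction (MI). The group holds 50 genes of the 55421 genes in the count table. It was set by name, with Myc and 49 genes of ribosomal RNA (rRNA) transcription, rRNA modification and assembly of the ribosomal subunits, and all 50 symbols were found. The 11 libraries came from female C57BL/6J mice aged 8 weeks. MI was induced in 8 of them by permanent ligation of the coronary artery that supplies the front wall of the left ventricle, and the infarct with its border zone was taken at day 3. Of these, 4 mice (A116, A117, A119 and A120) received A10i, the hydroxamate GI254023X at 100 mg/kg, which inhibits the metalloprotease ADAM10 and was given, per the study's methods, from implanted minipumps, and 4 (A105, A127, A128 and A129) received its solvent DMSO. The other 3 mice (S1, S2 and S3) were sham-operated, were labelled as DMSO treated and gave healthy heart tissue. No group carried a transgene or a deleted gene, and each library came from 1 mouse. The infarct comparison therefore sets infarct and border tissue against healthy tissue, and the inhibitor comparison sets infarcted hearts against infarcted hearts.

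Ribosomes are built in the nucleolus. RNA polymerase I copies the rRNA genes into a long precursor, small nucleolar ribonucleoproteins (snoRNPs) modify it, and large sets of assembly factors fold, cut and escort the precursors of the small and the large subunit. MYC is a transcription factor that drives many genes of this pathway when cells grow, and in the heart the pathway is known for its activity during growth of muscle cells and in dividing or activated non-muscle cells.

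MYC binds DNA with its partner MAX at the E-box, whose best known form is CACGTG, and the promoters were searched for these letters. The motif reads the same on both strands and only this motif was searched. RefSeq promoter windows of the GRCm38.p6 build, 250 bases before to 50 bases after the annotated start, were available for 43 members in 47 windows, and 8 of the 43 members (18.6%) held the motif against 8.09% of all 27025 genes with a window. A match describes the letters in the window and is no evidence of binding. The 8 matches are shown with up to 12 bases on each side, from 5′ to 3′ in the direction of the gene, with the E-box in capitals.
Imp4, chr1:34439696-34439725, plus strand: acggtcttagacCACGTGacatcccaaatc
Nop2, chr6:125131811-125131840, plus strand: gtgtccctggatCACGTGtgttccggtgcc
Ltv1, chr10:13193092-13193121, minus strand: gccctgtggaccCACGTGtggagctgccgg
Pes1, chr11:3963965-3963994, plus strand: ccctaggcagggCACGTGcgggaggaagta
Pno1, chr11:17211540-17211564, minus strand: tgtacaaccacgCACGTGttcctct
Tsr1, chr11:74898092-74898121, plus strand: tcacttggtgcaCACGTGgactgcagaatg
Utp20, chr10:88826765-88826789, minus strand: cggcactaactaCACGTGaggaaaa
Wdr43, chr17:71616220-71616249, plus strand: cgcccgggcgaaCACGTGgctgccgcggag

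The E-box of Imp4 began 121 bases and that of Nop2 60 bases before the start, whereas those of the other 6 members lay within the 50 bases after it. The 250 bases before the start of these 2 genes are given for the surroundings of the motif.
Imp4, chr1:34439579-34439828, plus strand: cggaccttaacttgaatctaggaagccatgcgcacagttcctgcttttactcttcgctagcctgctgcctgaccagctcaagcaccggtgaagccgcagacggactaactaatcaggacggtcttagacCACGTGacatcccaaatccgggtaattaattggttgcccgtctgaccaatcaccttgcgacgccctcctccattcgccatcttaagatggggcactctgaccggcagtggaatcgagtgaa
Nop2, chr6:125131633-125131882, plus strand: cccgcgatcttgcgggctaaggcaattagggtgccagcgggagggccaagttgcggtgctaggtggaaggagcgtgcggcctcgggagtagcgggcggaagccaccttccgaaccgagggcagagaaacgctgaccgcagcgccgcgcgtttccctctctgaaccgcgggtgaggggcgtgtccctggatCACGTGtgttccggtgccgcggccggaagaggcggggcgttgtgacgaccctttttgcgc
The 8 members with the motif had a median log2 fold change of -0.31 between A10i and DMSO mice, and the 35 members with a window but without the motif had -0.34. Between DMSO and sham mice the medians were 0.21 and 0.37. In neither comparison was the median of the members with the motif the one farther from 0. The difference between these medians was not tested. Bop1, Fbl, Gnl2, Myc, Npm1, Rrp12 and Rrs1 had no window and were not searched, nor were bases outside the windows.

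Values are given as CPM, counts brought to the same library total with edgeR's TMM factors over all 11 libraries. Totals were 21702623 to 29511768 counts per library, no member had fewer than 47 counts in any library, and all 50 passed the filter on low counts in each comparison. The members took 0.126 to 0.131% of all counts in sham, 0.173 to 0.208% in DMSO and 0.135 to 0.170% in A10i mice. Transcripts of the mitochondrial genome took 21.5 to 22.2%, 14.8 to 18.6% and 15.7 to 17.9%, so that the libraries differ in composition with the infarct. Pairs of mice of 1 group differed by more than counting error (3.80 to 55.2 for chi-square over its degrees of freedom).

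The main question was whether the infarcted hearts with and without the inhibitor differed in these genes. All 50 members had a lower fitted level in A10i than in DMSO mice, with a median log2 fold change of -0.34, or 20.8% lower, and a range of -1.02 (Myc) to -0.08 (Rrp1). Over all 16792 genes tested, 49.3% were lower and the median was 0.003. None of the 50 passed an adjusted p of 0.01 in edgeR's quasi-likelihood test, and neither did any other gene (0% called); the lowest adjusted p of a member was 0.0707. At an unadjusted p under 0.05, 43 members were lower and none was higher, against 6.73% of all genes that were lower at this level. In 27 members all 4 A10i mice lay below all 4 DMSO mice, which held for 4.11% of all genes tested. No member had the opposite separation. The members were chosen with earlier results of these data known, so these counts beside the shares do not test the group. The direction was the same for all 50 members when any 1 of the 8 libraries was left out and under each other normalization, filter and tool, with medians from -0.40 to -0.26. DESeq2 on the same libraries put 4 members (Nop58, Utp20, Wdr43 and Myc) under an adjusted p of 0.01, against 0.678% of all genes called lower by it. With limma-voom, 0 members were there. Over all genes DESeq2 called 104 higher and 123 lower, and limma-voom called 0, so the number called depended on the tool. Over the same mice, the summed level of 20 neutrophil markers was 137 to 252 CPM in DMSO and 37.9 to 104 CPM in A10i mice, and its part in the members' values was not tested. In bulk RNA, fewer cells of a type and less RNA per cell cannot be told apart.

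**Figure D1:**
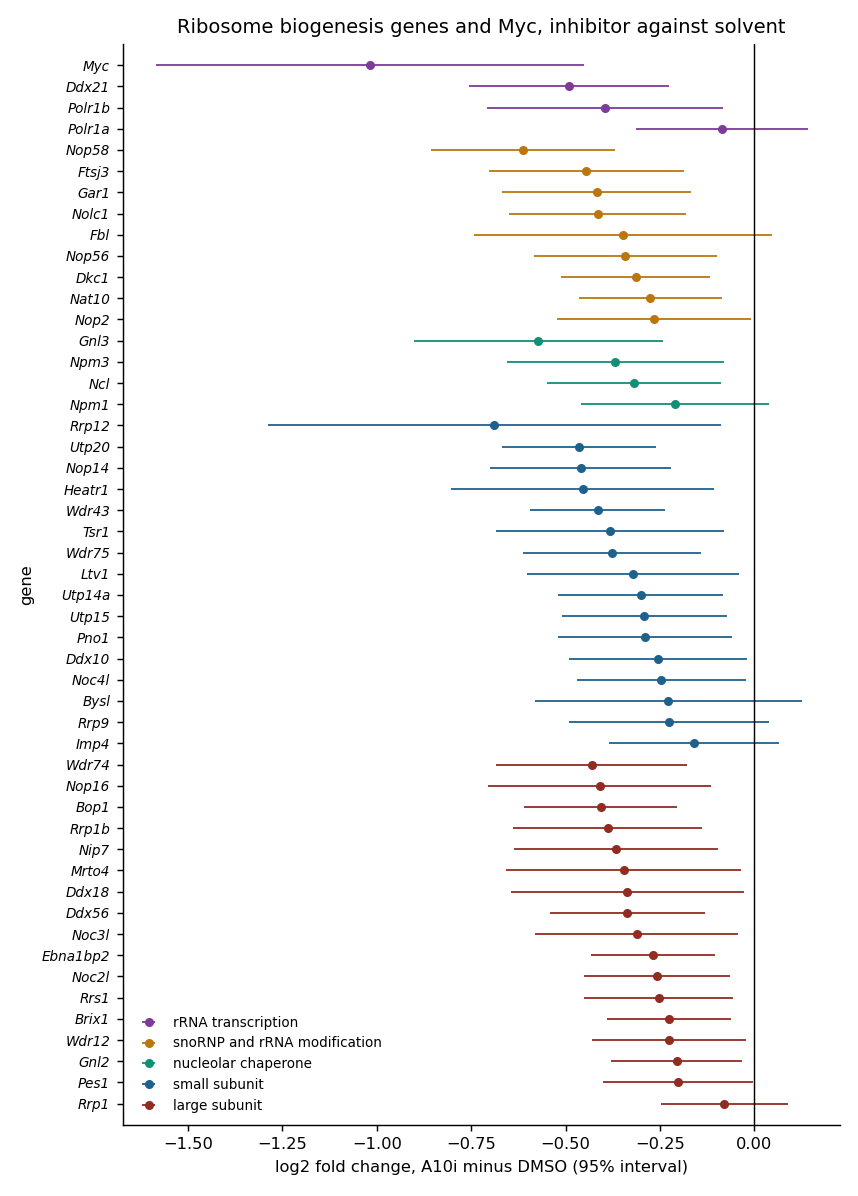
Log2 fold change of each of the 50 members between A10i and DMSO mice (4 mice each), grouped and coloured by role; points are edgeR estimates and lines 95% intervals. All points lie below 0, from -1.02 (Myc) to -0.08 (Rrp1), and 7 intervals reach over 0.

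Myc (ENSMUSG00000022346, chr15:61985391-61990374, mm10) encodes the transcription factor itself. Its levels were 2.86, 2.84 and 1.89 CPM in the sham mice S1 to S3, 21.8, 14.6, 14.8 and 26.1 CPM in the DMSO mice A105, A127, A128 and A129, and 13.00, 9.44, 5.98 and 9.62 CPM in the A10i mice A116, A117, A119 and A120. The 3 groups did not overlap: each infarcted mouse was above each sham mouse, and each A10i mouse was below each DMSO mouse. The means were 2.53 ± 0.551 (SD, n = 3), 19.3 ± 5.61 (SD, n = 4) and 9.51 ± 2.87 CPM (SD, n = 4). Against DMSO, A10i mice had a log2 fold change of -1.02 ± 0.25 (SE, 95% interval -1.59 to -0.45), which did not pass the test (adjusted p = 0.14). Myc rose with infarction in both groups, 7.60-fold in DMSO over sham mice (adjusted p = 0.000159) and 3.76-fold in A10i over sham mice (adjusted p = 0.000898). It was the member with the largest fold change in each of the 3 comparisons.

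Among the other genes of rRNA transcription, Ddx21 (ENSMUSG00000020075, chr10:62580251-62602281), an RNA helicase of the nucleolus that acts in rRNA transcription and processing, measured 109, 78.4, 89.4 and 99.6 CPM in DMSO and 75.5, 71.4, 62.03 and 58.3 CPM in A10i mice. Sham mice had 65.4, 60.1 and 56.5 CPM, which overlapped the A10i mice and lay below all DMSO mice. The A10i mice were below all DMSO mice, with a log2 fold change of -0.49 ± 0.12 (SE, 95% interval -0.76 to -0.23) and an adjusted p of 0.127. Against sham mice, Ddx21 rose 1.55-fold in DMSO mice (adjusted p = 0.0026), and in A10i mice the log2 fold change was 0.14 (95% interval -0.07 to 0.36; adjusted p = 0.265, and a log2 fold change of 0.33 with library size alone). Polr1a (ENSMUSG00000049553, chr6:71909053-71984935), the largest subunit of RNA polymerase I, went the other way with infarction. Sham mice had 87.8, 88.9 and 86.6 CPM, DMSO mice 68.5, 60.4, 59.2 and 58.4 CPM and A10i mice 49.9, 68.03, 57.3 and 56.4 CPM. Every infarcted mouse was below every sham mouse, while the infarcted groups overlapped. Polr1a fell by 0.51 on the log2 scale in DMSO mice (adjusted p = 0.00097, and a log2 fold change of -0.31 with library size alone) and by 0.60 in A10i mice (adjusted p = 0.00102), and between A10i and DMSO it was -0.09 ± 0.10 (SE, 95% interval -0.31 to 0.14). Polr1b, the second largest subunit, had 19.5 to 22.4 CPM in sham, 16.9 to 24.03 CPM in DMSO and 11.6 to 16.4 CPM in A10i mice. It fell in A10i mice against sham by 0.49 on the log2 scale (adjusted p = 0.00758), and did not pass the test in DMSO mice (-0.10; adjusted p = 0.552). The call against sham was lost with library size alone (-0.30), in a joint fit of all libraries, and without A119, A120, S1, S2 or S3, and the value in DMSO mice turned to 0.09 with library size alone.

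**Figure D2:**
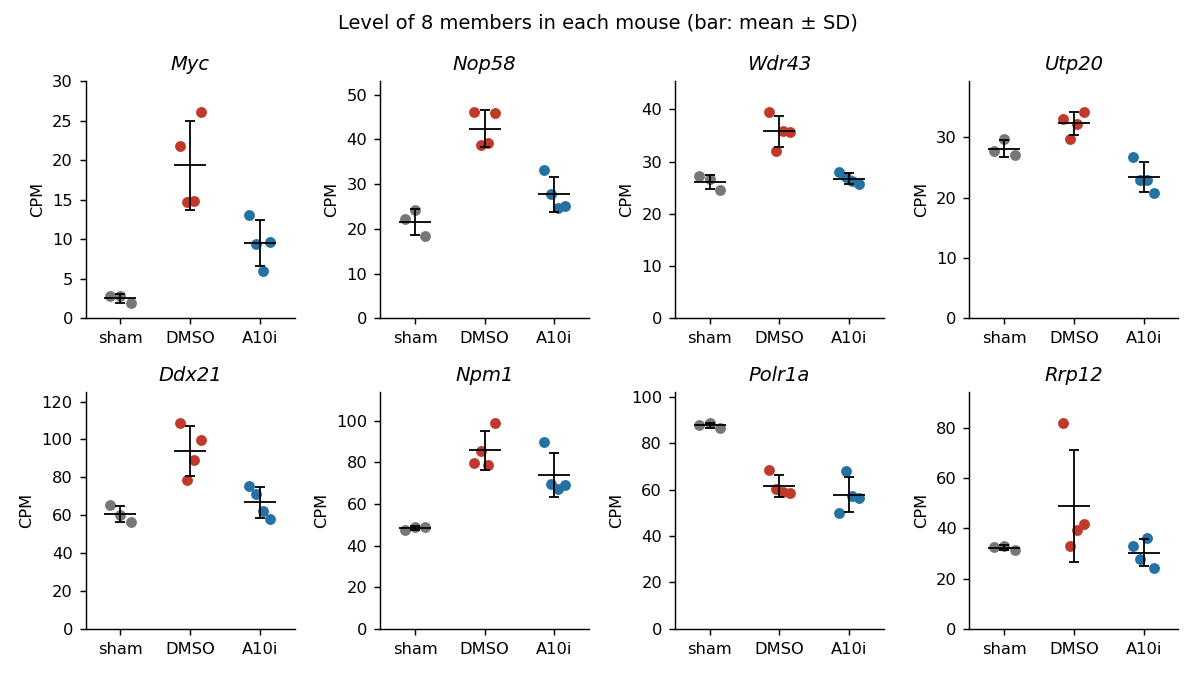
Level in CPM of 8 members in each of the 11 mice, by group, with the group mean and SD as a bar; every vertical axis starts at 0. Myc, Nop58, Wdr43, Utp20 and Ddx21 had all A10i mice below all DMSO mice, Npm1 stayed above sham in both infarcted groups, Polr1a was below sham in both, and the DMSO mean of Rrp12 was carried by the mouse A105 at 82.2 CPM.

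The 9 genes of snoRNPs and rRNA modification were lower in A10i mice, with a median of -0.35 on the log2 scale; 8 of them had an unadjusted p under 0.05 and none was called. Nop58 (ENSMUSG00000026020, chr1:59684971-59719044), a core protein of the box C/D snoRNPs that guide methylation of rRNA, had the lowest p of all members. It measured 22.2, 24.1 and 18.4 CPM in sham, 46.2, 38.7, 39.1 and 45.8 CPM in DMSO and 33.1, 27.8, 24.8 and 25.04 CPM in A10i mice. The 3 groups did not overlap, and the A10i mice took the middle place. The log2 fold change was -0.61 ± 0.11 (SE, 95% interval -0.86 to -0.37) between A10i and DMSO (adjusted p = 0.0707), 0.97 between DMSO and sham (adjusted p = 0.000343) and 0.36 between A10i and sham (adjusted p = 0.0406, and a log2 fold change of 0.56 with library size alone). DESeq2 gave an adjusted p of 0.000454 for A10i against DMSO. Nolc1, which chaperones snoRNPs between nucleolus and Cajal body, had 43.2, 37.1, 38.3 and 46.7 CPM in DMSO and 33.3, 34.03, 29.5 and 26.6 CPM in A10i mice, without overlap, and 29.3 to 32.4 CPM in sham mice. Its log2 fold change was -0.42 ± 0.11 (SE, 95% interval -0.65 to -0.18), with an adjusted p of 0.14. Fbl, the methyltransferase of the same C/D particles, had the largest p of this role, at 6.37, 4.62, 5.45 and 6.59 CPM in DMSO and 5.59, 4.68, 4.29 and 3.46 CPM in A10i mice, where A116 and A117 lay inside the DMSO range. Its log2 fold change was -0.35 ± 0.18 (SE, 95% interval -0.74 to 0.05). The other 6 members of this role lay between -0.45 for Ftsj3, an rRNA methyltransferase, and -0.27 for Nop2, also an rRNA methyltransferase, with Nop56, the partner of Nop58, at -0.34 and the H/ACA particle proteins Gar1 and Dkc1 at -0.42 and -0.31. In 6 of the 9 no A10i mouse reached the DMSO range. Nat10, which acetylates rRNA, was called in 1 comparison, lower in A10i than in sham mice (-0.28; adjusted p = 0.00828). That call was lost in 9 of 14 alternatives: with library size alone (-0.10), without the filter, in the joint fit, and without A117, A119, A120, S1, S2 or S3.

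The role of nucleolar chaperones was used here for 4 members, not all of them chaperones by name. Gnl3 (nucleostemin, a GTP-binding protein of the nucleolus that is abundant in growing cells) had 47.2, 31.4, 33.5 and 36.4 CPM in DMSO and 28.7, 26.5, 24.9 and 19.6 CPM in A10i mice. No mouse overlapped, A105 was the highest DMSO mouse, and the sham mice (21.5 to 24.00 CPM) lay within the A10i range. The log2 fold change of A10i against DMSO was -0.57 ± 0.15 (SE, 95% interval -0.90 to -0.24) with an adjusted p of 0.147. Ncl (nucleolin), which binds nascent rRNA, measured 341, 278, 289.9 and 328 CPM in DMSO, 261, 261, 244 and 224 CPM in A10i and 239.8, 241 and 239 CPM in sham mice. Its log2 fold change was -0.32 ± 0.10 (SE, 95% interval -0.55 to -0.09). Npm3, a relative of nucleophosmin, had -0.37, and like Gnl3 and Ncl it had all A10i mice below all DMSO mice. Npm1 (nucleophosmin, ENSMUSG00000057113, chr11:33152287-33163206) had the largest p of this role and a different order of groups. Sham mice had 47.4, 48.9 and 48.8 CPM, DMSO mice 79.5, 85.2, 78.8 and 98.97 CPM and A10i mice 89.7, 69.4, 67.3 and 69.2 CPM. All infarcted mice were above all sham mice, and the A10i mouse A116 lay above 3 of the DMSO mice. Npm1 rose 1.77-fold in DMSO mice (adjusted p = 0.000306) and 1.53-fold in A10i mice (adjusted p = 0.00135), and was -0.21 between them (95% interval -0.46 to 0.04, and a log2 fold change of -0.13 without A129). Apart from Myc it was the only member called higher in A10i than in sham mice.

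The small subunit is assembled on a large precursor particle, the processome, to which many of its 16 factors belong. All 16 were lower in A10i than in DMSO mice, with a median of -0.31, and 13 had an unadjusted p under 0.05. Wdr43 (ENSMUSG00000041057, chr17:71615895-71659031), a processome protein, measured 39.5, 32.1, 35.8 and 35.6 CPM in DMSO, 27.9, 27.03, 26.4 and 25.7 CPM in A10i and 27.1, 26.6 and 24.5 CPM in sham mice. The A10i mice lay within a narrow range that overlapped the sham mice and lay below all DMSO mice. The log2 fold change was -0.42 ± 0.08 (SE, 95% interval -0.60 to -0.24) against DMSO (adjusted p = 0.0852) and 0.04 against sham (95% interval -0.12 to 0.20, and a log2 fold change of 0.23 with library size alone). Utp20 (ENSMUSG00000004356, chr10:88746607-88826804), a large processome scaffold, was the only small subunit factor with all A10i mice below all mice of both other groups. Its values were 33.1, 29.8, 32.3 and 34.2 CPM in DMSO, 26.8, 23.01, 22.99 and 20.8 CPM in A10i and 27.7, 29.7 and 27.01 CPM in sham mice. The log2 fold change was -0.46 ± 0.09 (SE, 95% interval -0.67 to -0.26) against DMSO (adjusted p = 0.0882) and -0.26 against sham (adjusted p = 0.0422, and a log2 fold change of -0.07 with library size alone). Rrp9, a protein of the U3 snoRNP, was below all sham mice in all A10i mice (17.01, 13.3, 16.96 and 14.03 against 21.1, 19.5 and 22.4 CPM) and fell by 0.45 on the log2 scale (adjusted p = 0.00783). The call was lost with library size alone (-0.26), in the joint fit, and without A117, A120, S1, S2 or S3.

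Rrp12 and Bysl apart, the other 11 factors of this role lay between -0.46 for Nop14 and -0.16 for Imp4, both processome proteins. Of all 16, 7 had every A10i mouse below every DMSO mouse, namely Utp20, Nop14, Wdr43, Wdr75, Utp14a, Utp15 and Noc4l.

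Some small subunit values rested on the DMSO mouse A105. Rrp12, which takes part in export and late maturation of the particles and was named here after its values were seen, had 82.2, 33.2, 39.3 and 41.6 CPM in DMSO and 32.9, 27.7, 36.3 and 24.5 CPM in A10i mice. Its log2 fold change between A10i and DMSO was -0.69, and -0.32 without A105. Bysl, a factor of late small subunit maturation with the largest p of this role, had 49.02, 29.6, 29.03 and 32.9 CPM in DMSO and 30.01, 32.5, 28.7 and 28.4 CPM in A10i mice, and its value went from -0.23 to -0.03. In all, 8 members (Mrto4, Polr1a, Nop2, Ltv1, Rrp9, Tsr1, Bysl and Rrp12) moved by over 1.5 times when A105 was left out, and at most 2 when any other library was. These were Npm1 and Imp4 (-0.10) without A129, Rrp1 without A128 (-0.05) or A116 (-0.04), and Polr1a without A116 (-0.02) or A117 (-0.17). Without A105 the median of the 50 was -0.26, all 50 stayed lower and 31 had an unadjusted p under 0.05.

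All 17 factors of the large subunit were lower in A10i mice, with a median of -0.31, and 16 had an unadjusted p under 0.05. Bop1 (ENSMUSG00000022557, chr15:76452989-76477277), which forms a complex with Pes1 and Wdr12 that is needed to process the rRNA of the large subunit, measured 36.9, 31.1, 30.8 and 34.7 CPM in DMSO and 28.2, 24.7, 23.7 and 23.8 CPM in A10i mice, with 21.6, 22.5 and 23.3 CPM in sham mice. All A10i mice were below all DMSO mice and above all sham mice. The log2 fold change was -0.41 ± 0.09 (SE, 95% interval -0.61 to -0.21) against DMSO (adjusted p = 0.105). The partners had smaller differences, -0.20 for Pes1 (95% interval -0.40 to -0.004) and -0.23 for Wdr12 (-0.43 to -0.02). Wdr74, a factor of nucleolar large subunit particles, measured 16.4, 12.7, 12.6 and 12.8 CPM in DMSO and 10.5, 10.7, 9.08 and 10.1 CPM in A10i mice, with a log2 fold change of -0.43 ± 0.11 (SE, 95% interval -0.68 to -0.18). The other 12 lay between -0.41 for Nop16 and -0.21 for Gnl2, a GTP-binding nucleolar protein. In 8 of the 17 every A10i mouse was below every DMSO mouse, namely Wdr74, Bop1, Rrp1b, Ddx56, Ebna1bp2, Rrs1, Brix1 and Wdr12. Rrp1, also a nucleolar large subunit factor, had the largest p of this role. It measured 92.3, 98.8, 101 and 92.8 CPM in DMSO, 83.1, 94.02, 92.98 and 93.4 CPM in A10i and 94.3, 94.3 and 91.1 CPM in sham mice, and all groups overlapped; the log2 fold change of A10i against DMSO was -0.08 ± 0.08 (SE, 95% interval -0.25 to 0.09).

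Per length of summed exons, the members spanned a wide range of levels. Summed exons can exceed the length of a single transcript. They were 11955 bases for Wdr12 and 2665 bases for Npm1, so this order depends on the annotation. In DMSO mice the highest mean levels were those of Npm1 (32.1 RPKM, which is CPM per kilobase of summed exons), Ncl (30.4 RPKM) and Rrp1 (28.8 RPKM), and the lowest those of Wdr12 (1.32 RPKM), Fbl (1.37 RPKM) and Rrp1b (2.00 RPKM). Myc had a mean level of 0.932 RPKM in sham, 7.12 RPKM in DMSO and 3.50 RPKM in A10i mice.

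The response to infarction alone was read from DMSO against sham mice. Here 46 of the 50 members were higher in DMSO mice, with a median log2 fold change of 0.37, against 50.2% of the 17117 genes tested. At an adjusted p under 0.01, 16 members rose, against 12.9% of all genes, and 1 fell, Polr1a, against 9.6%. The 16 were Myc and Ddx21 of rRNA transcription, Nop58, Fbl, Gar1 and Nolc1 of the snoRNPs, and Npm1 and Gnl3 of the nucleolar chaperone role. The others were Wdr43, Wdr75 and Utp14a of the small subunit, and Bop1, Nip7, Nop16, Rrp1b and Brix1 of the large subunit. After Myc, the smallest p-values belonged to Npm1 and Nop58. Nop58 rose 1.96-fold, Npm1 1.77-fold and Gnl3 1.63-fold. In 36 members all DMSO mice were above all sham mice, against 25.1% of all genes, and in 1, Polr1a, all were below, against 23.6%. The count of 16 depended on the 3 sham libraries, with 3 members called higher without S1, 4 without S2 and 4 without S3. Over all genes the number called higher fell too, from 2215 of 17117 to 977 of 17612 without S1. It was 939 of 17497 without S3, and it also fell without S2, so the drop was not particular to the members. The calls of Ddx21 and Gnl3 were lost when any 1 of the 3 sham libraries was left out. Without the DMSO mouse A105, 43 members were higher, with a median of 0.26. Of the members, 12 were then called higher, against 2264 of 16970 genes. Scaling by library size alone moved the median of all genes to 0.21 and that of the members to 0.57. It called 31 members higher, and 3331 of all 17117 genes.

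In A10i against sham mice, infarcted tissue with the inhibitor was set against healthy tissue. The members split into 27 higher and 23 lower, with a median log2 fold change of 0.02; 49.5% of the 16971 genes tested were higher. At an adjusted p under 0.01, 2 members rose (Myc and Npm1), against 13.7% of all genes, and 4 fell (Polr1a, Polr1b, Nat10 and Rrp9), against 9.11%. In 11 members (Myc, Nop58, Gar1, Nop2, Npm1, Wdr75, Utp14a, Bop1, Nip7, Nop16 and Brix1) all A10i mice were above all sham mice, against 24.8% of all genes, and in 7 (Polr1a, Polr1b, Nat10, Ftsj3, Utp20, Rrp9 and Tsr1) all were below, against 23.5%. For 35 members the 95% interval of the difference held 0, and in 32 members the mice of the groups overlapped, as with Wdr43 and Ncl (-0.13 to 0.22). A p that misses the threshold does not show equal levels, and the intervals of Wdr43 and Ncl still allow differences of up to 0.20 and 0.22 on the log2 scale. The counts were small and moved with single libraries. Without S1, Npm1 was no longer called and 1 member remained higher, while all genes called higher fell from 2333 to 1077. The number called lower was 1 without S1, without S2, without S3 or without A120, and 2 without A117 or without A119. Over all genes, 1546 were called lower, and 543 without S1, 597 without S2, 602 without S3 and 1033 without A120. Without A117 and A119 they were 1415 and 1453. With library size alone 43 members were higher and 7 lower, 3 of them called higher and 1 lower, with a median of 0.21 for the members beside 0.18 for all genes. Over all 16971 genes, 3435 were then called higher and 579 lower. DMSO mice are part of 2 of these comparisons and sham mice of 2, so their values are not independent of each other.

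**Figure D3:**
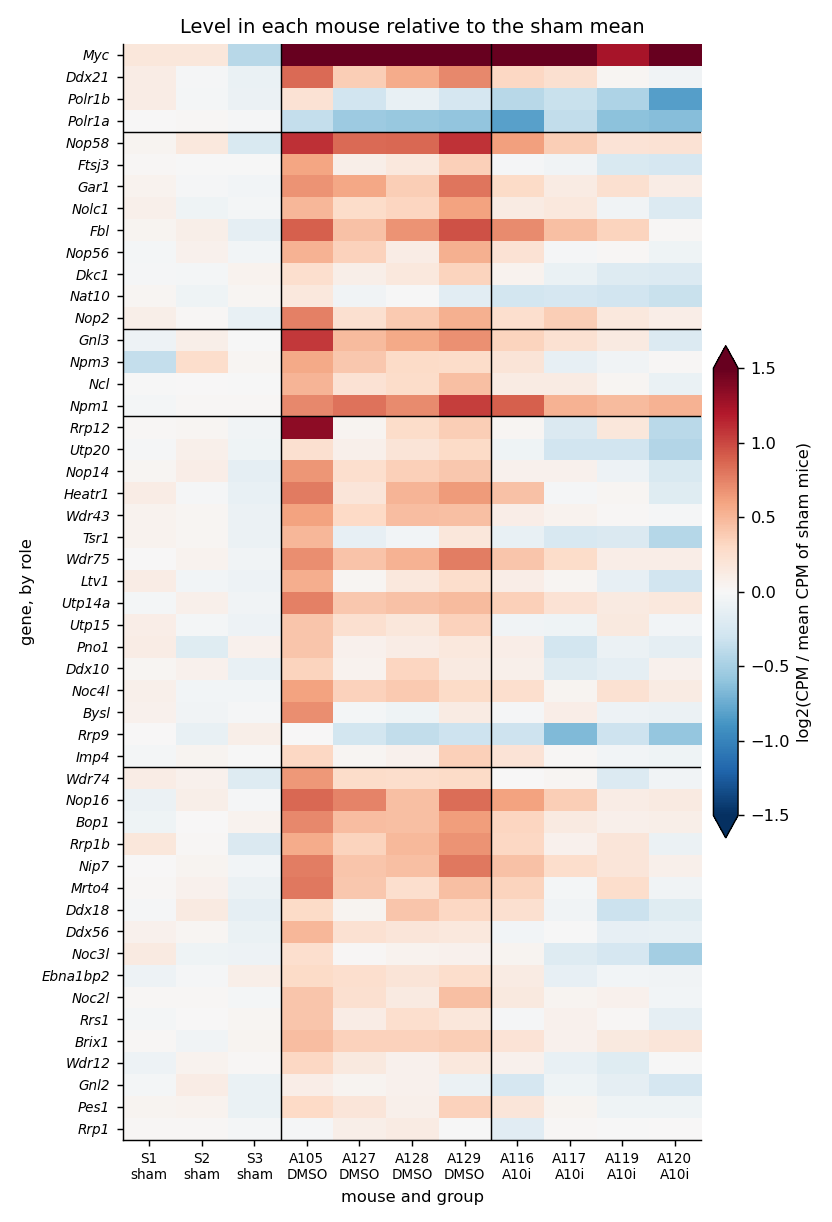
Log2 ratio of each member's CPM to the sham mean in each of the 11 mice, with genes grouped by role and ordered by the log2 fold change of A10i against DMSO; red is above and blue below the sham mean, and the colours end at 1.5 in either direction, which Myc exceeds in all DMSO mice and in the A10i mice A116, A117 and A120. The DMSO columns are mostly red, with A105 and A129 the strongest, and the A10i columns are mostly pale or mixed. In every A10i mouse Myc and Npm1 are red, and Polr1a, Polr1b and Rrp9 are blue.

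Mouse by mouse, the sum over the 49 members other than Myc was 1441, 1434 and 1388 CPM in sham, 1999, 1623, 1672 and 1826 CPM in DMSO (A105, A127, A128, A129), and 1525, 1452, 1392 and 1312 CPM in A10i mice (A116, A117, A119, A120). The A10i mice lay on both sides of the sham mice and below all DMSO mice. Of these 49 members, 31 had their highest level of all 11 mice in A105 and 13 in A129, and 19 had their lowest in A120 and 13 in S3.

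The relation to Myc over mice was examined within the groups, with the group mean taken from every log2 CPM (prior count 2), so that the differences between groups do not enter. Over the 11 mice, 44 of the 49 members were positively correlated with Myc, with a median Pearson r of 0.58, whereas over 17479 genes 50.3% were positive with a median of 0.005. Both values of a mouse come from the same library. None of the 49 passed an adjusted p of 0.05 and 9 had an unadjusted p under 0.05, in an exact permutation test of mice within groups (3456 orders, two-sided, smallest possible p = 0.000289). Nop58 had the highest correlation, with r = 0.87 (p = 0.00781, adjusted p = 0.151) and rho = 0.87 (p = 0.00579, adjusted p = 0.149) by the exact permutation test. Pes1 followed with r = 0.87 (p = 0.00926, adjusted p = 0.151) and rho = 0.85 (p = 0.0101, adjusted p = 0.149), and Wdr75, a processome protein, with r = 0.86 (p = 0.00752, adjusted p = 0.151) and rho = 0.84 (p = 0.0081, adjusted p = 0.149), both by the same exact test. Rrp1 had the lowest, with r = -0.62 (p = 0.0964, adjusted p = 0.206) and rho = -0.62 (p = 0.0804, adjusted p = 0.164) by the exact permutation test. Without A119 and S3, the mice farthest from the median of Myc, r was 0.84 for Nop58, 0.88 for Pes1, 0.89 for Wdr75 and -0.87 for Rrp1, and 45 members were positive with a median of 0.62. In the 8 infarcted mice alone 44 were positive, with a median of 0.54.

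**Figure D4:**
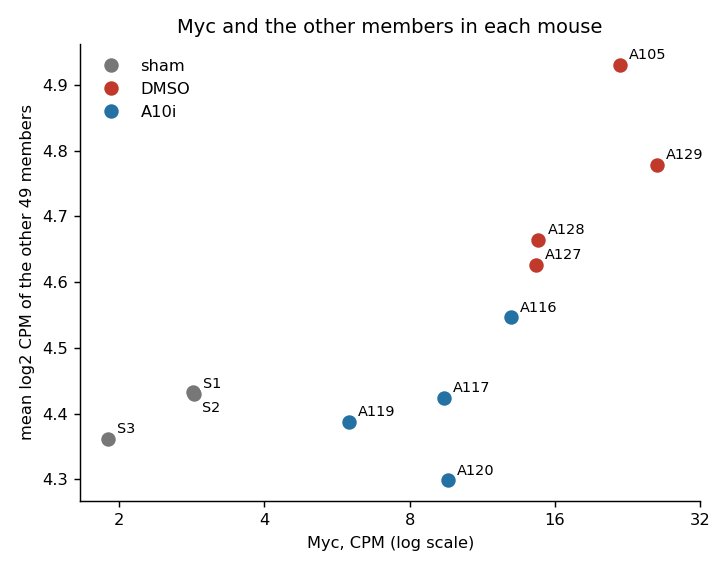
Mean log2 CPM of the 49 members other than Myc against the CPM of Myc on a log axis, 1 point per mouse, coloured by group. The sham mice lie at low Myc and the DMSO mice at high Myc with the highest mean levels; the A10i mice have more Myc than sham mice (5.98 to 13.00 against 1.89 to 2.86 CPM) at mean levels of 4.30 to 4.55 against 4.36 to 4.43 in sham mice.

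Other genes of the pathway were read from lists that hold no member. These lists too were chosen with earlier results of these data known. Of 38 further small subunit factors tested, 38 were lower in A10i than in DMSO mice, 23 of them at an unadjusted p under 0.05, with a median of -0.28. Wdr46, which scaffolds the processome, had the smallest p, with 17.2 ± 2.67 CPM in DMSO and 10.6 ± 0.888 CPM in A10i mice (SD, n = 4 each) and a log2 fold change of -0.69 (adjusted p = 0.0707). Aatf (-0.45) and Wdr36 (-0.34) followed. Of 44 further large subunit factors, a list that also holds H/ACA particle genes and the histone gene regulator Npat, 42 were lower, 22 at this level and 1 the other way, with a median of -0.23. Rrp15 (-0.64), Sdad1 (-0.46) and Mak16 (-0.56) had the smallest p. Of 18 genes of the RNA polymerase I machinery, 13 were lower, 5 of them at this level, with a median of -0.16; Taf1d had -0.39, Znrd1 -0.30 and Polr1e -0.55 (-0.33 without A105). Of 13 genes of the RNA exosome, which trims rRNA precursors, 10 were lower and 2 at this level, with a median of -0.18; Exosc5 had -0.22, Exosc1 -0.29 and Exosc9 -0.18. None of these genes was called at an adjusted p of 0.01 in edgeR. DESeq2 called 4 of the further small subunit factors (Wdr46, which edgeR also called without the filter on low counts, Wdr36, Aatf and Mybbp1a), 4 of the further large subunit factors (Rrp15, Sdad1, Ppan and Mak16) and none of the polymerase or exosome genes, all of them lower.

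In DMSO against sham mice, calls were read at an adjusted p under 0.01. Of the further subunit factors, 7 of 38 for the small and 11 of 44 for the large subunit rose, while 0 and 1 fell. Of all genes, 12.9% rose and 9.6% fell. The medians of these lists were 0.27 and 0.20. No gene of the polymerase machinery or the exosome rose, and 1 of the polymerase machinery fell. In A10i against sham mice, 1 of the 38 and 2 of the 44 rose, 1 and 1 fell, and the medians were 0.03 and 0.01. Of all genes, 13.7% rose and 9.11% fell. The polymerase machinery had 3 genes that fell and 0 that rose, with Polr1e at -0.40 (adjusted p = 0.00543, and a log2 fold change of -0.21 and not called with library size alone, nor called in the joint fit or without A117, A120, S1, S2 or S3), and the exosome had none.

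The partners and rivals of MYC belong to the same network of transcription factors. Of 12 genes of the Myc network tested between A10i and DMSO mice, 3 were lower, 9 were higher and 2 had an unadjusted p under 0.05, both higher, with a median of 0.09. These were Mycn, a relative of Myc, at 1.88 ± 0.710 CPM in DMSO and 3.17 ± 0.778 CPM in A10i mice (0.75; adjusted p = 0.272), and Zbtb17, a MYC-binding transcription factor (0.25). Mxd4, which competes with MYC for MAX, had 0.19. Between DMSO and sham mice, 5 of the 12 fell at an adjusted p under 0.01 and none rose, among them Zbtb17 (-0.59; adjusted p = 0.000776), Mxd4 (-0.39; adjusted p = 0.00819) and Max (-0.38; adjusted p = 0.00401). With library size alone these were -0.38, -0.19 and -0.17, and the calls of Mxd4 and Max were lost there and without S1, S2 or S3, that of Mxd4 also without A105, A127 or A129. Of 13 tested between A10i and sham mice, 2 fell and 1 rose. Of 24 other genes known as MYC targets, in metabolism and translation, 20 were lower in A10i than in DMSO mice, 9 at an unadjusted p under 0.05, with a median of -0.22. Srm, the spermidine synthase, had 25.8 ± 3.90 CPM in DMSO and 17.1 ± 4.46 CPM in A10i mice (-0.59; adjusted p = 0.181), Eif4a1, a translation initiation helicase, -0.40, and Prmt1, an arginine methyltransferase, -0.45 (-0.28 without A105). Against sham mice, 8 of 23 of these targets rose and 2 fell in DMSO mice, and 7 of 24 rose and 6 fell in A10i mice. Of all genes, 12.9% rose and 9.6% fell in DMSO mice, and 13.7% rose and 9.11% fell in A10i mice.

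**Figure D5:**
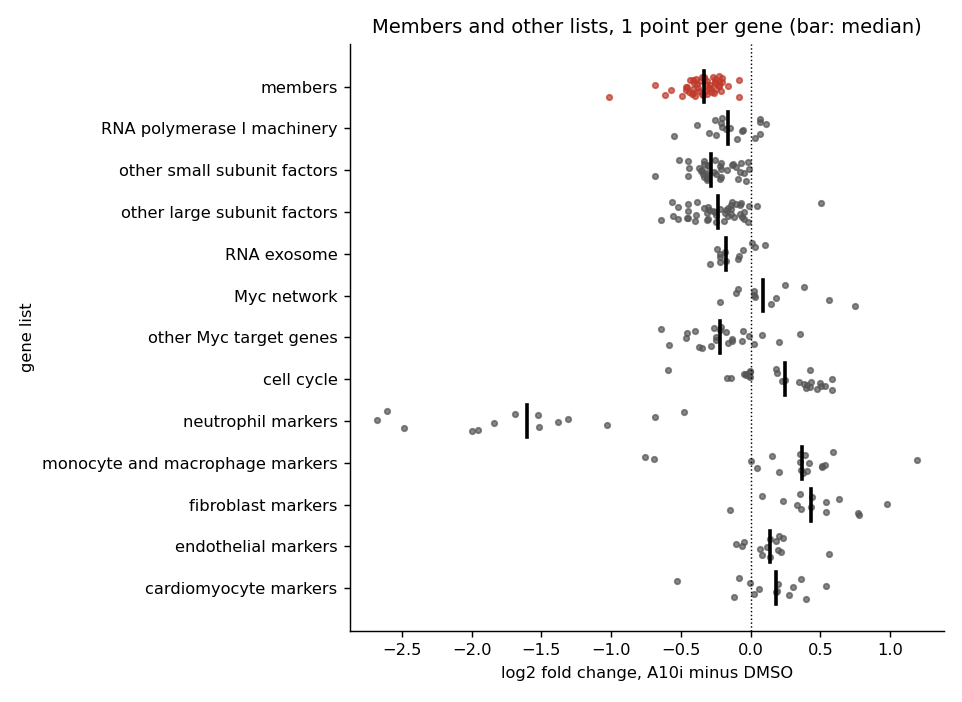
Log2 fold change of A10i against DMSO mice for the 50 members and for each gene of 12 other lists that passed the filter, 1 point per gene, with the median as a bar. The members and the further small and large subunit factors lie mostly below 0 (medians -0.34, -0.28 and -0.23), the neutrophil markers lie farthest below (median -1.61), and the Myc network, cell cycle, macrophage, fibroblast, endothelial and cardiomyocyte lists have medians above 0.

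Genes of the cell cycle were mixed. Of 27, 10 were lower and 17 higher in A10i than in DMSO mice, with a median of 0.25 and none at an unadjusted p under 0.05; Ccne2 had 0.42, Ccne1 -0.59 and Kif11 0.58. Single mice moved these values, to 0.24 for Ccne2 without A105 and 0.28 without A116, to -1.02 to -0.32 for Ccne1 without A116, A119 or A129, and to 0.25 to 1.02 for Kif11 without A105, A116 or A129. Against sham mice, 4 of 27 rose in DMSO mice (median 1.72) and 21 in A10i mice (median 2.04) at an adjusted p under 0.01, and none fell. Of all genes, 12.9% rose in DMSO mice and 13.7% in A10i mice. Their summed level was 111 to 166 CPM in sham, 156 to 581 CPM in DMSO and 286 to 667 CPM in A10i mice, where A105, highest for 31 members, had the lowest sum of the infarcted mice (156 CPM).

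Markers of the cells in the tissue were read in the same way. Of 14 neutrophil markers tested, all were lower in A10i than in DMSO mice, 13 at an unadjusted p under 0.05 and none called in edgeR, with a median of -1.61 on the log2 scale; DESeq2 called 7, all lower, and edgeR without the filter called Stfa2l1. Their sum was 6.47 to 8.44 CPM in sham, 137 to 252 CPM in DMSO and 37.9 to 104 CPM in A10i mice, with Ly6g, Trem1, Mrgpra2b and Stfa2l1 at 0 in every sham mouse and no marker at 0 throughout an infarcted group. The calprotectin genes S100a9 (-1.95) and S100a8 (-2.001) and the stefin Stfa2l1 (-2.61) had the smallest p (adjusted p = 0.0707 for each). All 15 tested rose in DMSO over sham mice, and 12 of 13 in A10i over sham mice. Of 18 monocyte and macrophage markers, 16 were higher in A10i mice, 6 of them and 1 in the other direction at this level, with a median of 0.37 and sums of 422 to 460.2, 723 to 1180.0 and 881 to 1639 CPM in sham, DMSO and A10i mice; C1qc (0.53), C1qa (0.51) and Cx3cr1 (1.20) had the smallest p. Against sham, 11 of them rose in DMSO and 13 in A10i mice, against 12.9% and 13.7% of all genes.

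Of 14 fibroblast markers, 13 were higher in A10i mice, 3 of them at this level (Dpt, Lum and Dcn, 0.44, 0.43 and 0.36), of which DESeq2 called Dpt, with sums of 2709.8 to 2849, 3299.8 to 8137 and 6755 to 11055 CPM. A105 had the lowest fibroblast sum of the infarcted mice (3299.8 CPM) and A116 the highest. Of 14 endothelial markers, 11 were higher in A10i mice, 2 at this level (Kdr 0.56, Tie1 0.22; Eng 0.18), of which DESeq2 called Kdr, with sums of 1805 to 1857, 1529 to 1683 and 1738 to 1855 CPM. The cardiomyocyte markers, which mark the labelled tissue as heart, were at 108164 to 110688, 53043 to 75758 and 64065 to 86573 CPM; 10 of 14 were higher in A10i than in DMSO mice, 1 at this level (Atp2a2 0.54; Ryr2 0.30, Myh6 0.39). No marker of these 4 lists was at 0 in every mouse of a group. Against sham mice, 5 fibroblast markers rose and 0 fell in DMSO mice and 10 rose in A10i mice; 1 endothelial marker rose and 4 fell in DMSO mice and 1 rose and 1 fell in A10i mice; 1 cardiomyocyte marker rose and 7 fell in DMSO mice and 1 rose and 4 fell in A10i mice. Of all genes, 12.9% rose and 9.6% fell in DMSO mice, and 13.7% rose and 9.11% fell in A10i mice. The part of these cell types in the members' values was not tested.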

How the data were processed

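Poly(A) RNA of 11 hearts was made into strand-specific libraries. The authors mapped the read pairs to mm10 with GSNAP (after bcl2fastq 2.20.0), and featureCounts 2.0.1 assigned those with a unique position to Ensembl genes. The deposited values are raw counts, without normalization, for 55513 features, of which 92 spike-in rows (14 to 55 counts per library) were left out. The strand setting of the counting is not given in the sources used here, so genes that overlap on opposite strands are uncertain, as are those with near-identical copies, such as Npm3 and Mrto4, of which the table names 1 and 2 pseudogenes. Symbols came from the GENCODE M21 annotation for 55154 genes.

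The 3 pairings of groups were tested with edgeR 4.0.16 in R 4.3.3 (filterByExpr, TMM, quasi-likelihood F-test, two-sided, Benjamini-Hochberg over all genes tested, threshold 0.01). Intervals are 95% t intervals of the fit. DESeq2 1.42.0, limma-voom (limma 3.58.1), DESeq2 size factors, library size alone, TMM without the 37 mitochondrial genes, no filter, a joint fit of 11 libraries, a threshold of 0.05 and leaving out each library were the alternatives. The fits were tested on simulated counts. The members and lists were chosen with earlier results of these data known. Named genes are Myc, in each role the 2 members with the smallest and the 1 with the largest p between A10i and DMSO, the 3 smallest p in each direction against sham, the 3 highest and the lowest correlation with Myc, and up to 3 genes per list; other names were added after the values were seen. Labels give no batch, and they do not say that the mice came from separate litters. Promoters were RefSeq windows, searched for exact letters.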

Additional observations from a re-analysis of the deposited data

Results flagged for a closer look

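In each infarcted group of 4 mice, 1 mouse can stand apart from the other 3 by more than Dixon's 95% limit; this was examined for the 50 members in both groups, 100 groups in all, and 5 stood out, where chance gives about 1 in 20. Npm1 measured 89.7 CPM in the A10i mouse A116 against 67.3 to 69.4 CPM in the other 3. Utp15, a processome protein, measured 11.1 CPM in A119 against 9.59 to 9.75 CPM. Rrp1 was the only one below the others, at 83.1 CPM in A116 against 92.98 to 94.02 CPM. In the DMSO mouse A105, Noc3l measured 15.1 CPM against 12.9 to 13.2 CPM and Wdr74 16.4 CPM against 12.6 to 12.8 CPM.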

How the results depend on the processing

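Between A10i and DMSO mice, all 50 members were lower in every alternative. The number called at an adjusted p under 0.01 went from 0 to 1 without the filter (Nop58), against 25 of 31662 genes called lower. With DESeq2 it went to 4, against 0.678% of all genes called lower. At 0.05 DESeq2 called 12 members, edgeR 0 and its joint fit 6. Shares of all genes at 0.05 are not given for DESeq2 and the joint fit, so these counts say nothing particular to the members. DESeq2 also called Myc (log2 fold change -1.02). The cause was not tested. With 1 library left out, the number called stayed at 0 and the number lower at an unadjusted p under 0.05 was 31 to 43. The median was -0.40 to -0.26 and Myc -1.20 to -0.84. The number without overlap was 27 to 39. Leaving out a mouse cannot lower that number, and its share over all genes was not counted there. Between DMSO and sham, members called higher were 31 with library size alone and 26 at 0.05, against 3331 and 3687 of 17117 genes. With 1 library left out they were 3 to 18. The 3 were without S1, against 977 of 17612 genes, and the 18 without A127, against 1825 of 16791. Members called lower stayed at 1. Myc was 2.75 to 3.04 with 1 library left out. Between A10i and sham, members called lower were 1 with library size alone and 1 in the joint fit, against 579 and 909 of all genes. With 1 library left out, members called lower were 1 to 5, against 543 to 1821 of all genes. Those called higher were then 1 to 2, against 1062 to 2544, and Myc was 1.72 to 2.08. Over all genes given with values, Myc included, 18 of 960 fits between A10i and DMSO became calls, 31 of 154 between A10i and sham lost one and 1 became one, and 17 of 140 between DMSO and sham lost one. Polr1b turned to 0.095 between DMSO and sham with library size alone, and Wdr43 was -0.0057 to 0.068 between A10i and sham with 1 library left out, below 0 without S3. No other direction changed in these 960, 154 and 140 fits. Over all 50 members, the number lower between DMSO and sham went from 4 to 7 without A105. Between A10i and sham it went from 23 to 7 with library size alone and to 28 without A116. Correlations with Myc gave 0 calls throughout. No paired analysis was possible because the groups share no replicate numbers.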
